A study of Mus musculus with 17 samples.

Results

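Subunits of the mitochondrial respiratory chain and of ATP synthase were followed in sorted mouse Kupffer cells (KCs), which are macrophages that reside in the liver. They were chosen by gene symbol: rows that start with Nduf and a subunit letter and number, with Uqcr, with Atp5, or with Cox and a number of 4 to 8 followed by a, b or c, together with Sdha, Sdhb, Sdhc and Sdhd. Of the 25124 genes of each deposited table, 84 matched, of which 37 belong to complex I, 4 to complex II, 8 to complex III, 18 to complex IV and 17 to complex V. Ndufa4, which bears a complex I name, was counted with complex IV, of which it is a subunit, and so was Cox7a2l, a factor that joins complexes into supercomplexes. Genes were tested where the deposited value, a log2 expression level, reached 3.32, the log2 of 10, in 3 samples, or in 2 samples of the Id3 table. This left 79 subunits in TIM4+CD206+ KCs, 78 in TIM4+CD206hi KCs and 77 in the Id3 comparison.

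RNA-seq covered 17 samples in 6 groups. For TIM4+CD206+ and for TIM4+CD206hi KCs, 3 samples were tumour-free and 3 were tumour-bearing, taken 2 weeks after tumour cells of a pancreatic adenocarcinoma line (KPC) had been injected into the portal vein. KCs without tumour came from 3 Id3f/f samples, which carry floxed Id3 and no Cre, and 2 Clec4fCreId3f/f samples, in which Cre is driven by Clec4f, a gene of KCs, so that Id3 is deleted in KCs and not in the whole mouse. The study's methods sort KCs by F4/80 and TIM4, and call the Id3f/f mice littermates. RNA of all samples was amplified as cDNA before library preparation. The age, sex and strain of these mice are not given in the labels, nor whether each replicate was a single mouse, so that p-values measure the spread between these samples only.

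Complex I takes electrons from NADH and complex II from succinate, complex III passes them to cytochrome c, complex IV gives them to oxygen, and ATP synthase, complex V, uses the proton gradient that complexes I, III and IV build up. Most subunits are encoded in the nucleus and imported, and the remainder, which form part of the cores of complexes I, III, IV and V, are encoded by mitochondrial DNA and were not analysed here. Complex II is encoded wholly in the nucleus and is also an enzyme of the tricarboxylic acid cycle. In macrophages, the balance between respiration and glycolysis is known to move with activation.

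KC identity genes were found throughout: all 15 markers listed were in each table and none was at 0. Their summed level, the log2 of the sum of the linear values, was 20.98 to 21.85 in TIM4+CD206+ samples and 20.15 to 20.80 in TIM4+CD206hi samples. In the Id3 table it was 20.56 to 20.61 in Id3f/f and 20.43 to 20.45 in Clec4fCreId3f/f samples. Between these genotypes 3 of the 15 markers were higher and 5 lower at a limma adjusted p under 0.05, against 6.44% of all genes in either direction. Id3 itself is among the 15. The linear values of all genes summed to 34.1 to 39.7 M (mega) per sample in the TIM4+CD206+ table, 32.6 to 35.1 M in the TIM4+CD206hi table and 21.8 to 24 M in the Id3 table, and the read depth itself is not held in these values. Id3 was 12.58, 12.46 and 12.82 in the Id3f/f samples and 9.83 and 9.82 in the Clec4fCreId3f/f samples, a log2 difference of −2.80 ± 0.11 (SE, limma adjusted p = 1.4e-06). The genotypes also differed in sex-linked genes: Xist was 6.38, 6.33 and 6.36 in Id3f/f and 9.84 and 9.76 in Clec4fCreId3f/f, and Ddx3y of the Y chromosome was at least 9.43 against at most 7.01, so that genotype and sex cannot be told apart below. In the tumour tables, 3 tumour-free libraries stood apart by their correlation with the other samples over genes with a mean value of at least 10. In TIM4+CD206hi KCs (5511 genes), the third replicate reached 0.885 at most and the first 0.901, where the others reached at least 0.942. In TIM4+CD206+ KCs (3815 genes), the second replicate reached 0.934, where the others reached at least 0.966. Differences below are between group means of log2 values, and genes with few reads have their differences understated by the authors' transformation. Sequenced bulk RNA cannot tell fewer cells of a type from less RNA per cell.

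**Figure D1:**
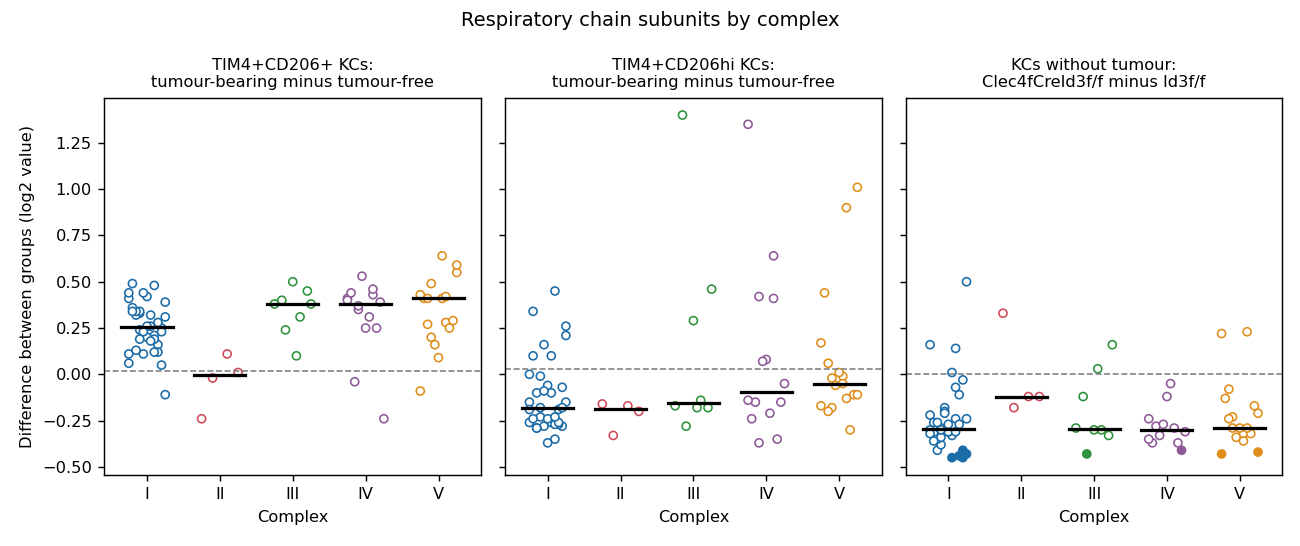
Each point is 1 subunit, plotted by complex on the horizontal axis, and the vertical axis gives the difference between the group means in log2 value. Black bars are medians of a complex, the dashed line is the median of all genes tested, and filled points have a limma adjusted p under 0.05. Complexes I, III, IV and V had medians of 0.25 to 0.41 with tumour in TIM4+CD206+ KCs and −0.30 to −0.29 with Id3 deletion, and the 9 filled points all lie below 0.

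The first question was whether the respiratory chain of the main KC subset, TIM4+CD206+, differed in livers with tumour. No subunit passed the test: of 79, none had a limma adjusted p under 0.05, the threshold for a call, the smallest being 0.131, while 469 of all 13233 genes did (3.54%, with 2.55% higher and 0.998% lower). At an unadjusted p under 0.05 there were 12 subunits (15.2%), against 17.2% of all genes. This number was unstable: it was 0 without the third tumour-bearing sample, 2 without the first, 21 without the first tumour-free sample, 1 after median centring, 5 without the limma trend and 21 after quantile normalization. Values nevertheless lay mostly to one side, with 73 of 79 subunits higher in tumour-bearing samples (92.4%, against 52.1% of all genes) and a median log2 difference of 0.31, against 0.02 for all genes. In 15 subunits (19.0%) every tumour-bearing sample lay above every tumour-free sample, against 12.9% of all genes, and in 0 the reverse held, against 10.5%.

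By complex, the medians of I, III, IV and V lay above 0 and that of II near 0. The median difference was 0.25 in complex I (35 of 36 subunits higher), 0.38 in complex III (8 of 8), 0.38 in complex IV (12 of 14) and 0.41 in complex V (16 of 17), and it was −0.01 in complex II (2 of 4), or 0.06 after quantile normalization. The difference between complexes was not tested. Within complex I, the 7 catalytic core subunits, which hold the flavin and iron-sulphur centres, had a median of 0.12, and the 29 accessory subunits, which surround and stabilise the core, a median of 0.31.

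The smallest p belonged to Atp5mpl, a small membrane subunit of ATP synthase. It was 10.96, 10.69 and 10.84 in the tumour-free samples and 11.38, 11.23 and 11.80 in the tumour-bearing samples, so that the groups did not overlap. The difference was 0.64 ± 0.19 (SE, limma adjusted p = 0.131). Samples with the same replicate number tended to deviate together in this table (correlations of 0.35, 0.56 and 0.15), although the labels do not say that they are paired. With the number as a block Atp5mpl alone passed (limma adjusted p = 0.0497), with 25 subunits at an unadjusted p under 0.05 and 1026 genes called in all.

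The largest differences of the other complexes were of the same order. Ndufa6, an accessory subunit of complex I, was 10.42, 10.83 and 10.64 against 11, 11.05 and 11.32, a difference of 0.49 ± 0.18 (limma adjusted p = 0.213). Uqcrq, a small subunit of complex III that lies near cytochrome b, was 12.67, 12.15 and 12.74 against 13.08, 12.81 and 13.18, a difference of 0.50 ± 0.20 (limma adjusted p = 0.253). Cox7b, a nuclear subunit of cytochrome c oxidase, was 10.74, 10.86 and 10.63 against 11.25, 10.99 and 11.57, a difference of 0.53 ± 0.19 (limma adjusted p = 0.207). In all 3 the groups did not overlap, although the gap was narrow: the lowest tumour-bearing value of Uqcrq was 12.81 and its highest tumour-free value 12.74.

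Complex II had the lowest median. Sdha, the flavoprotein that oxidises succinate, was 13.03, 13.26 and 12.82 in tumour-free samples and 12.76, 12.77 and 12.86 in tumour-bearing samples (−0.24 ± 0.16, limma adjusted p = 0.529). Sdhb, the iron-sulphur subunit, was 14.37, 13.57 and 14.58 against 14.30, 14.24 and 14.31 (0.11 ± 0.25), and Sdhc and Sdhd, the membrane anchors, differed by −0.02 ± 0.25 and 0.01 ± 0.16. In Sdha the groups overlapped, and in Sdhb the tumour-bearing samples lay within the range of the tumour-free ones. Among the subunits of the other complexes, the lowest differences were those of Ndufs1, the largest iron-sulphur subunit of complex I (−0.11 ± 0.26), of Cox6a2 (−0.24 ± 0.22) and of Atp5a1, the alpha subunit of the catalytic head of ATP synthase (−0.09 ± 0.14).

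The size of the difference moved with 1 tumour-free sample. Relative to the tumour-free mean, the median of the 79 subunits was 0.17, −0.27 and 0.08 in the tumour-free samples and 0.34, 0.12 and 0.42 in the tumour-bearing samples. The second tumour-free sample was thus the lowest and the second tumour-bearing sample lay within the tumour-free range. Each tumour-bearing sample lay above the tumour-free sample with the same replicate number. Ndufs8, an iron-sulphur subunit, was 13.93, 12.98 and 13.97 in tumour-free and 13.88, 13.78 and 13.93 in tumour-bearing samples. Its low tumour-free value, 12.98, was the only one below the tumour-bearing value with the same replicate number. Without the second tumour-free sample, the median difference was 0.17, with 62 of 79 subunits higher, no subunit was called and 1022 genes were called in all.

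**Figure D2:**
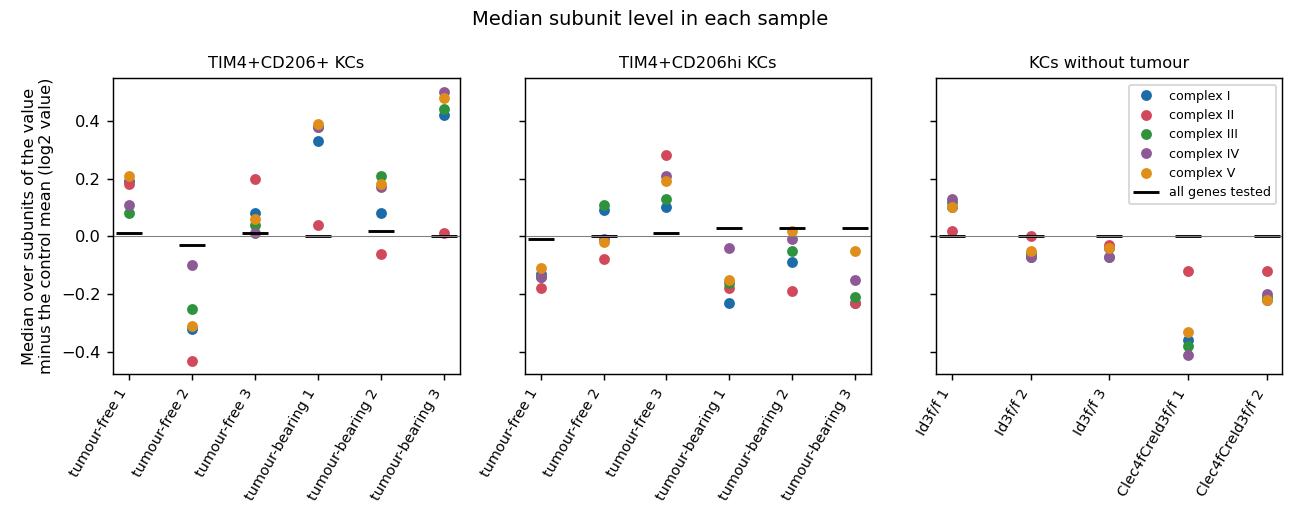
For each sample on the horizontal axis, coloured points give the median over the subunits of a complex of the value minus the control mean of that subunit (tumour-free or Id3f/f), in log2 value, and black dashes give the same over all genes tested. Complex II lies below the other complexes in the tumour-bearing TIM4+CD206+ samples (0.04, −0.06 and 0.01) and above them in the Clec4fCreId3f/f samples (−0.12 in both).

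The differences also moved with transcript length. Most subunits have short transcripts, and in TIM4+CD206+ KCs the median difference was 0.34 for the 49 subunits with a transcript under 1000 bases, 0.25 for the 21 from 1000 to under 2000 bases and −0.02 for the 7 of 2000 bases or more. The same classes of all genes had medians of 0.24 (n = 781), 0.06 (n = 2744) and −0.02 (n = 8911), and 79.9% of all genes under 1000 bases were higher in tumour-bearing samples. Once trends with length and GC content were removed from each sample, the median of the subunits was 0.02 and 43 of 77 were higher. The complex medians then lay between −0.08 (complex II) and 0.10 (complex V).

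Markers of other cells moved with the tumour groups as well. Of 14 epithelial and pancreatic tumour markers tested in TIM4+CD206+ KCs, 14 were higher and 13 passed the test, and none of the 15 listed was at 0. Their summed level was 10.96 to 11.90 in tumour-free and 15.42 to 15.64 in tumour-bearing samples, beside 18.64 to 18.96 and 19.03 to 19.14 for the summed respiratory subunits. Neutrophil markers (10 of 10 higher, 5 called) summed to 13.56 to 14.25 and 15.21 to 15.31, and hepatocyte markers (15 of 15 lower, 8 called) to 17.29 to 17.51 and 16.63 to 16.99. KC markers (14 of 15 lower, 3 called) summed to 21.29 to 21.85 and 20.98 to 21.08, and monocyte markers (8 of 8 higher, 4 called) to 13.60 to 14.89 and 15.20 to 15.29. The part of these cells in the subunit differences was not tested.

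In TIM4+CD206hi KCs the subunits lay to the other side, and again none passed the test. Of 78, none had a limma adjusted p under 0.05 (smallest 0.260) and none an unadjusted p under 0.05, while 1053 of 14561 genes were called (7.23%, with 5.21% higher and 2.03% lower) and 21.1% of all genes had an unadjusted p under 0.05. Tumour-bearing samples were lower for 55 subunits and higher for 23 (29.5%, against 52.3% of all genes), and the median difference was −0.15, against 0.03 for all genes. Groups did not overlap for 14 subunits that were lower (17.9%, against 15.2% of all genes) and 3 that were higher (3.85%, against 15.6%). The median was −0.18 in complex I, −0.18 in complex II, −0.16 in complex III, −0.10 in complex IV and −0.05 in complex V. This position depended on the scaling. Centring each sample on its own median moved the median of all genes by −0.16, to −0.13, and that of the subunits to −0.31. Quantile normalization moved the median of all genes by −0.14, to −0.11, and left that of the subunits at −0.12, so that the subunits then lay at the median of all genes.

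The largest falls of each complex were close to each other in size. Ndufa5, an accessory subunit of the arm that protrudes into the matrix, was 9.99, 10.26 and 10.33 in tumour-free and 9.70, 9.96 and 9.81 in tumour-bearing samples (−0.37 ± 0.18, limma adjusted p = 0.285). Ndufa4 was 12.01, 12.28 and 12.50 against 11.86, 11.97 and 11.84 (−0.37 ± 0.17, limma adjusted p = 0.278). Sdhc was 12.43, 12.45 and 13.01 against 12.30, 12.32 and 12.27 (−0.33 ± 0.19, limma adjusted p = 0.368). In these 3 the groups did not overlap, and the highest sample of each was the third tumour-free replicate. Uqcrb, a small subunit of complex III, and Atp5h, a subunit of the peripheral stalk of ATP synthase, followed with −0.28 ± 0.17 and −0.30 ± 0.16, also without overlap.

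The third tumour-free replicate set a separate pattern. It lay more than 1 log2 unit below the median of the 6 samples for 10 of 78 subunits, against 2 in the first tumour-free replicate and 0 in each of the others, and over all genes it did so for 2645 of 14561. Uqcrfs1, the Rieske iron-sulphur protein of complex III, was 10.12, 11.81 and 8.91 in tumour-free samples and 11.72, 11.68 and 11.64 in tumour-bearing samples, the largest difference of the chain (1.40 ± 0.64, limma adjusted p = 0.268). Cox5a, a nuclear subunit of cytochrome c oxidase, was 11.93, 13.28 and 10.18 against 13.16, 13.15 and 13.12 (1.35 ± 0.68, limma adjusted p = 0.306). Atp5d, the delta subunit of the catalytic head, was 12.21, 12.52 and 10.24 against 12.64, 12.72 and 12.62 (1.01 ± 0.55, limma adjusted p = 0.340), and Atp5b, the catalytic beta subunit, was 14.78, 14.86 and 13.11 against 15.12, 15.18 and 15.16 (0.90 ± 0.45, limma adjusted p = 0.299). Each was lowest in the third replicate, and for Uqcrfs1 and Cox5a the first tumour-free replicate was low too while the second lay just above the tumour-bearing samples. For Atp5d and Atp5b all tumour-bearing samples lay above the tumour-free ones. Ndufa10, with 11.61, 11.71 and 10.33 against 11.63, 11.73 and 11.64 (0.45 ± 0.36), was the corresponding subunit of complex I.

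These subunits shared a high GC content at the start of the transcript, which the choice of genes did not use. In the third tumour-free replicate, the 27 subunits with at least 65% GC in the first 200 bases had a median deviation of −0.77 from the median of the 6 samples, with 10 of 27 more than 1 unit below it. The 8 subunits under 50% GC had a median deviation of 0.35 with 0 such values, and the 25 from 50 to under 60% one of 0.36 with 0. All genes moved alike, with medians of −0.46 at 65% or more (n = 5620) and 0.37 under 50% (n = 1404). Of all genes in these classes, 1705 of 5620 and 120 of 1404 lay more than 1 unit below the median. From 50 to under 60% GC, 377 of 4024 did. Across subunits, Spearman's rho between this deviation and GC content was −0.66 in the third replicate, 0.16 in the second and −0.08 in the first (n = 77, genes of the same libraries, given as a description). It was 0.28, 0.28 and 0.31 in the tumour-bearing TIM4+CD206hi samples. In TIM4+CD206+ KCs it was −0.35, 0 and 0.19 in tumour-free and −0.39, 0.38 and −0.24 in tumour-bearing samples. GC content of the first 200 bases was 70.0% in Uqcrfs1, 67.0% in Cox5a, 66.5% in Atp5d and 69.5% in Atp5b. It was also 67.0% in Sdhb, whose value of 12.97 in the third replicate lay within the range of the others.

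**Figure D3:**
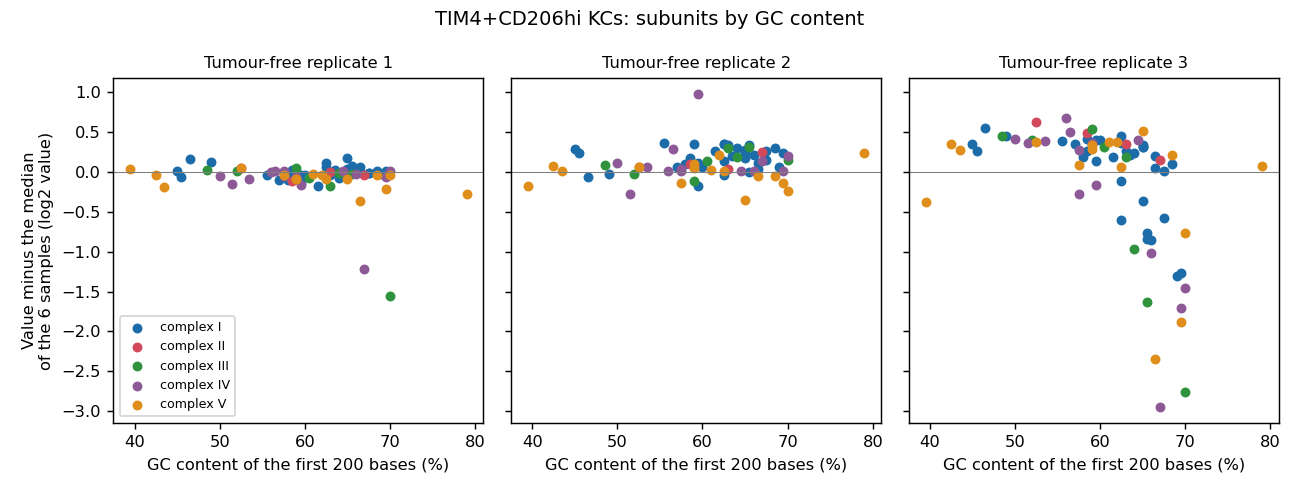
The 3 tumour-free TIM4+CD206hi samples are shown in separate panels. The horizontal axis is the GC content of the first 200 bases of the transcript in percent, the vertical axis is the value minus the median of the 6 samples in log2 value, and each point is 1 subunit coloured by complex. In the third replicate the points fall below −1 for 10 subunits, all with at least 65% GC, and in the second replicate none do.

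Promoter windows of Uqcrc1, a core subunit of complex III, and Cox8a, a small subunit of complex IV, are printed because both were among the subunits low in that replicate and their last 50 bases are the start of the gene. They cover 250 bases before to 50 bases after the gene start in RefSeq (build GRCm38.p6), in the direction of the gene. Capitals mark letters searched for on both strands: the palindromic core motif of NRF-1, a known regulator of respiratory chain genes, in Uqcrc1, and CCGGAAGT, the motif of GABPA, a factor of the ETS family also known for such genes, in Cox8a, where it occurs 2 times as its reverse complement.
Uqcrc1 promoter, chr9:108936398-108936697, plus strand: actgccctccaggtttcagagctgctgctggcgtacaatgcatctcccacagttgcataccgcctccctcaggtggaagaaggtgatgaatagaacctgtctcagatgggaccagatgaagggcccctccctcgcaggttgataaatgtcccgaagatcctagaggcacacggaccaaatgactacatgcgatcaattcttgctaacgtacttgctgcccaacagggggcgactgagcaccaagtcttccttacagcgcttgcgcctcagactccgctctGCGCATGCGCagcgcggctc
Cox8a promoter, chr19:7217567-7217866, minus strand: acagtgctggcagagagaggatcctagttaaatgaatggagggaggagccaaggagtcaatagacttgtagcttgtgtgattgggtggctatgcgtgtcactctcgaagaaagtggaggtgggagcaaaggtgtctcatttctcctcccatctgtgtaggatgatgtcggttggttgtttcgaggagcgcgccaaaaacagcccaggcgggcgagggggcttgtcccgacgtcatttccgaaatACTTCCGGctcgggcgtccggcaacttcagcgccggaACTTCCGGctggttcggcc
Uqcrc1 was 13.30, 13.64 and 11.69 in tumour-free and 13.29, 13.39 and 13.34 in tumour-bearing samples, with 65.5% GC in the first 200 bases. Cox8a was 12.45, 12.51 and 10.81 against 12.55, 12.65 and 12.50, with 69.5% GC. In both, the third tumour-free value lay over 1 unit below every other sample.

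Without this library, too, no subunit was called, and none without the first tumour-free replicate, where the median difference was −0.24. Without the third, the median difference of the subunits was −0.08, 18 of 78 were higher, 2 had an unadjusted p under 0.05, and Uqcrc1 turned from 0.46 to −0.13. Leaving out the second tumour-free replicate instead called 2 subunits, Uqcrfs1 (2.17 ± 0.33, limma adjusted p = 0.00568) and Cox5a (2.09 ± 0.46, limma adjusted p = 0.0197), and 3634 genes in all. With length and GC trends removed from each sample, the median of the subunits was −0.20, 14 of 77 were higher, 16 had an unadjusted p under 0.05 and none was called. The summed epithelial and tumour markers were 11.09 to 11.49 in tumour-free and 15.89 to 15.98 in tumour-bearing TIM4+CD206hi samples (14 of 14 higher, 14 called, none at 0), beside 18.19 to 18.39 and 18.30 to 18.38 for the summed subunits, and endothelial markers (9 of 10 lower, 2 called) summed to 17.35 to 18 and 16.68 to 16.99. Monocyte markers summed to 14 to 14.43 and 14.95 to 15.06, and neutrophil markers to 13.02 to 13.83 and 14.37 to 14.96. The sums of B cell markers (11.78 to 12.01 and 10.93 to 11.04), T and NK cell markers (11.67 to 11.85 and 11.10 to 11.14), hepatocyte markers (16.72 to 17.04 and 16.40 to 16.65) and KC markers (20.35 to 20.80 and 20.15 to 20.31) were lower in tumour-bearing samples without overlap. The part of these cells was not tested.

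Uqcrfs1 and Cox5a were uneven in the other subset too. In TIM4+CD206+ KCs Uqcrfs1 was 9.14, 11.65 and 9.64 in tumour-free and 9.99, 11.52 and 10.12 in tumour-bearing samples, and Cox5a was 11.56, 13.64 and 12.35 against 12.48, 13.73 and 12.59. Both were highest in the second replicate of each group, by over 1 unit. In the Id3 table the same genes were even, with 11.74 to 11.98 for Uqcrfs1 and 13.28 to 13.69 for Cox5a.

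Set side by side, the medians of the subsets had opposite signs. Of 78 subunits tested in both, 50 were higher with tumour in TIM4+CD206+ KCs and lower in TIM4+CD206hi KCs, 22 were higher in both, 5 were lower in both and 1 was lower in the former and higher in the latter. The subsets have control samples of their own, and the labels do not say whether these came from different mice. Their tables were normalized separately and no test crossed them. Levels of the subsets were not compared for the same reason.

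The last question was whether the chain differs in KCs that lack Id3. Of 77 subunits, 9 passed the test and all 9 were lower in Clec4fCreId3f/f KCs, while 827 of 12833 genes passed (6.44%), 3.37% in that direction and 3.08% in the other. At an unadjusted p under 0.05 there were 56 subunits (72.7%), against 23.6% of all genes. In all, 68 of 77 were lower and 9 higher (11.7%, against 50.4% of all genes), with a median difference of −0.29 against 0.00 for all genes. Groups did not overlap for 60 subunits that were lower (77.9%, against 21.7% of all genes) and 4 that were higher (5.19%, against 20.2%). Complexes I, III, IV and V had medians of −0.30, −0.30, −0.30 and −0.29, and complex II −0.12.

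The 9 called subunits were 5 of complex I, 1 each of complexes III and IV and 2 of complex V, and none is a catalytic subunit. Ndufb3, an accessory subunit of the membrane arm of complex I, was 10.43, 10.28 and 10.33 in Id3f/f and 9.85 and 9.94 in Clec4fCreId3f/f samples (−0.45 ± 0.09, limma adjusted p = 0.0237). Uqcrb was 12.17, 11.99 and 12.03 against 11.55 and 11.72 (−0.43 ± 0.10, limma adjusted p = 0.0321). Cox7a2, the isoform of a complex IV subunit used outside muscle, was 11.80, 11.64 and 11.60 against 11.18 and 11.36 (−0.41 ± 0.10, limma adjusted p = 0.0415). In each the higher Clec4fCreId3f/f sample lay below the lowest Id3f/f sample, and the second Clec4fCreId3f/f sample was the nearer to the controls. Atp5md, a small membrane subunit of ATP synthase, was 10.98, 10.80 and 10.90 against 10.38 and 10.58 (−0.42 ± 0.10, limma adjusted p = 0.0426). The other 5 were Ndufb2 (−0.43), Ndufa7 (−0.44), Ndufa3 (−0.45) and Ndufs4 (−0.41) of complex I and Atp5j2 (−0.43) of the membrane part of ATP synthase, with limma adjusted p of 0.0324 to 0.0385.

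Promoters of 3 of these 9 hold AAGATGGC, the motif of YY1, a factor known to act at genes of mitochondrial proteins, and they are printed as examples. All 9 were lower, with or without the motif, and a relation between motif and difference was not tested. The windows are those of RefSeq (GRCm38.p6) as above, with the motif in capitals, 22 to 35 bases after the gene start and on the strand of the gene.
Ndufa3 promoter, chr7:3617123-3617422, plus strand: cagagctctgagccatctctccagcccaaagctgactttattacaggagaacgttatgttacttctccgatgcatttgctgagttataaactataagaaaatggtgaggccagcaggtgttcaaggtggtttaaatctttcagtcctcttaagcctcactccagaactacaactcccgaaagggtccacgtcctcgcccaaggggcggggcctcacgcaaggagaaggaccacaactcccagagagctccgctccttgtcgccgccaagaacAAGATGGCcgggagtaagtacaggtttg
Ndufs4 promoter, chr13:114388045-114388344, minus strand: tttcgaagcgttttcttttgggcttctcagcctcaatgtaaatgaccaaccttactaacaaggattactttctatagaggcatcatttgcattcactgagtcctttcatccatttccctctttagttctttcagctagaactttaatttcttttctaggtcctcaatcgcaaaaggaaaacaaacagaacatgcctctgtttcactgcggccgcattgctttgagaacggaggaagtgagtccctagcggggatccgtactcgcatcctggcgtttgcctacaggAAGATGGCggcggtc
Atp5j2 promoter, chr5:145191492-145191791, minus strand: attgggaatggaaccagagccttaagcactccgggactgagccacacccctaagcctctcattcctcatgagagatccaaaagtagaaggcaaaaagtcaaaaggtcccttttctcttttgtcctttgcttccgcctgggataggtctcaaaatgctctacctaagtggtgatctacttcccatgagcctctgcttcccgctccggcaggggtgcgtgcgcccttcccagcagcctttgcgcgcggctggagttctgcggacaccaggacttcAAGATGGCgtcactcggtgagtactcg
Ndufa3, an accessory subunit of the membrane arm, was 10.61, 10.36 and 10.56 in Id3f/f and 9.98 and 10.15 in Clec4fCreId3f/f samples. Ndufs4, an accessory subunit of the matrix arm, was 10.93, 10.75 and 10.78 against 10.38 and 10.44, and Atp5j2 was 11.60, 11.39 and 11.49 against 10.99 and 11.14. Of the 84 subunits, 67 matched a promoter in the table, and 9 of them held AAGATGGC, against 2.75% of 32851 promoters. Besides the 3 printed, these were Atp5j, Ndufa9, Ndufb8, Ndufc1, Ndufs6 and Ndufs7, of which none was called with Id3 deletion. The NRF-1 motif was in 5 of 67 (0.971% of all promoters) and CCGGAAGT in 5 of 67 (3.89%). Subunits were counted per gene, with the motif in any promoter of the gene, and the shares of all promoters per promoter. A gene with several promoters thus has more chances of a match, and the counts and shares are not like for like. A match in these windows is a description of the letters and not a site of binding.

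Subunits that were higher without Id3 were few. Ndufs1 was 9.99, 10.41 and 9.93 in Id3f/f and 10.58 and 10.64 in Clec4fCreId3f/f samples, without overlap (0.50 ± 0.14, limma adjusted p = 0.0623). Sdha was 12.02, 12.17 and 12.04 against 12.43 and 12.38, also without overlap (0.33 ± 0.09, limma adjusted p = 0.0547). Atp5b was 14.39, 14.48 and 14.25 against 14.60 and 14.61 (0.23 ± 0.08), and Atp5a1 was 13.68, 13.75 and 13.59 against 13.91 and 13.86 (0.22 ± 0.08). These 4 are the only subunits whose Clec4fCreId3f/f samples all lay above the Id3f/f samples, and none passed the test. Uqcrc1 differed by 0.16 ± 0.10. The catalytic core of complex I had a median of −0.07, against −0.31 for its 29 accessory subunits, of which 28 were lower.

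**Figure D4:**
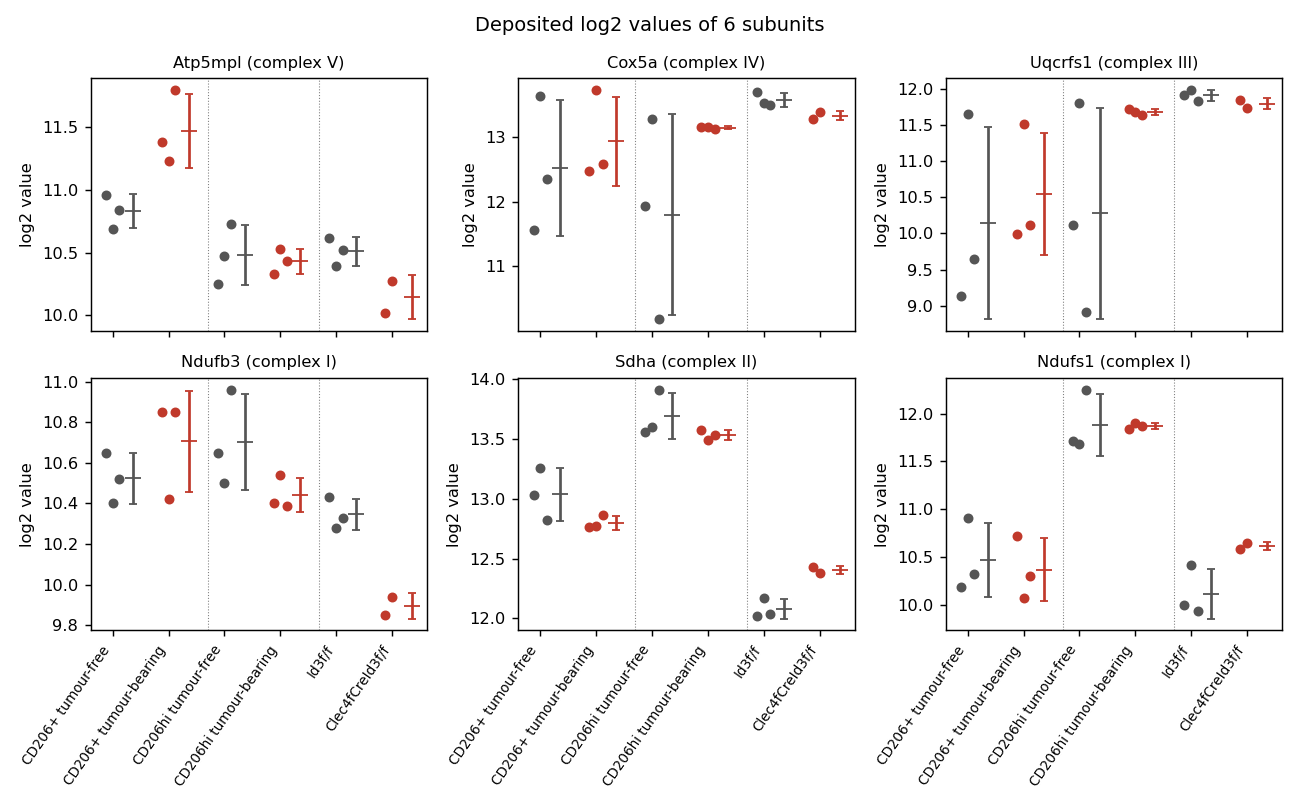
Deposited log2 values of 6 subunits are shown per sample (points, left to right in replicate order), with the group mean and SD (bars), for tumour-free or Id3f/f samples in grey and tumour-bearing or Clec4fCreId3f/f samples in red. Dotted lines separate the 3 tables, which were normalized separately, so that levels may be compared only within a table. Ndufb3 is lower and Sdha and Ndufs1 are higher in both Clec4fCreId3f/f samples, and Cox5a and Uqcrfs1 spread over 1 unit or more among the tumour-free samples of both subsets.

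The differences were ordered by transcript length. All 47 subunits under 1000 bases were lower (median −0.31), as were 16 of 21 from 1000 to under 2000 bases (median −0.22) and 3 of 7 of 2000 bases or more (median 0.14). All genes were ordered likewise: 91.1% of the 729 genes under 1000 bases were lower (median −0.25), and the medians of the longer classes were −0.07 (n = 2646) and 0.04 (n = 8686). Of the subunits under 1000 bases, 7 of 47 were called lower (14.9%), and of all genes of that length 128 of 729 (17.6%). Groups did not overlap, on the lower side, for 44 of these 47 subunits (93.6%) and for 527 of the 729 genes (72.3%). From 1000 to under 2000 bases the shares were 57.1% of subunits and 37.5% of all genes. At 2000 bases or more they were 28.6% and 12.1%. Spearman's rho between the difference and length was 0.58 across 75 subunits and 0.39 across 12061 genes, which share the same libraries. Sdha and Ndufs1 have transcripts of 2900 and 2661 bases, Ndufb3 one of 763 and Uqcrb one of 535. With length and GC trends removed from each sample, the median difference of the subunits was −0.05, 27 of 75 were higher and none of the 9 subunits remained called, Atp5md having no transcript in the annotation and so no value. The medians of complexes I to V were then −0.07, 0.03, −0.02, −0.04 and −0.04. Cox6b2 (0.20 ± 0.05, limma adjusted p = 0.0352) and Ndufs1 (0.50 ± 0.13, limma adjusted p = 0.0487) were called higher in that fit. The part of length in the calls was not tested beyond this.

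**Figure D5:**
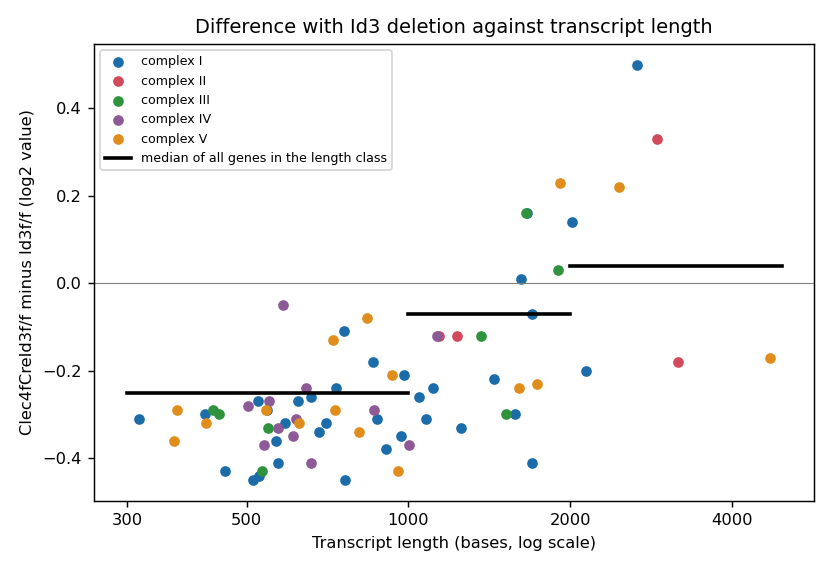
Each point is 1 subunit, with its transcript length in bases on a log scale on the horizontal axis and the difference between Clec4fCreId3f/f and Id3f/f KCs in log2 value on the vertical axis. Black lines give the medians of all genes under 1000 bases (−0.25), from 1000 to under 2000 bases (−0.07) and of 2000 bases or more (0.04), and the points lie below 0 for all 47 subunits under 1000 bases.

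The count of calls also depended on single samples. Relative to the Id3f/f mean, the median of the 77 subunits was 0.11, −0.06 and −0.05 in the Id3f/f samples and −0.36 and −0.21 in the Clec4fCreId3f/f samples. By limma, no subunit was called without the first Id3f/f sample (207 of all 12833 genes, 39 subunits at an unadjusted p under 0.05), without the first Clec4fCreId3f/f sample (17 genes, 11 subunits) or without the second (19 genes, 48 subunits), the lone Clec4fCreId3f/f sample being assumed to vary like the controls. Without the second Id3f/f sample 4 subunits and 410 genes were called, and without the third 42 subunits and 1850 genes, so that subunit calls were more where calls over all genes were more. The median difference stayed between −0.36 and −0.21 throughout. Epithelial and tumour markers summed to 8.69 to 8.81 in Id3f/f and 8.68 to 8.81 in Clec4fCreId3f/f samples, with Krt20, Cldn4, Gkn1 and Elf3 at 0. Monocyte markers summed to 13.56 to 13.82 and 12.74 to 12.85 (4 of 6 lower, 1 called, with Vcan at 0). Neutrophil markers summed to 11.03 to 11.14 and 10.71 to 10.91 (7 of 8 lower, 1 called). Hepatocyte markers summed to 16.29 to 16.68 and 16.34 to 16.48 (10 of 15 higher, 2 called). Of 10 endothelial markers, 5 were higher and 5 lower, with 1 called each way. The part of these cells was not tested.

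Isoforms that are known from heart, muscle or testis were low or not seen in KCs, as compared on values per kilobase of transcript (the log2 value minus the log2 of the length in kilobases). In tumour-free TIM4+CD206+ KCs, Cox6a1 stood at 14.10 and its heart and muscle isoform Cox6a2 at 6.61, Cox7a2 at 12.82 and its muscle isoform Cox7a1 at 6.67, and Cox6b1 at 13.90 and its testis isoform Cox6b2 at 6.90. Cox7b2 and Cox8c were listed at 0 in all 3 tables and Cox8b in the TIM4+CD206+ and Id3 tables. Nearest above the threshold of 3.32 were Ndufb4c at 3.59 to 3.81 in TIM4+CD206+ KCs, Cox7a1 at 3.61 to 3.96 in TIM4+CD206hi KCs and Cox6b2 at 3.93 to 4.03 in the Id3 table, and nearest below it Ndufa4l2 at 2.21 to 2.7 and 2.26 to 2.80, and Cox7a1 at 3.00 to 3.04 in the Id3 table. Of the genes for subunit c of ATP synthase, whose products form the same rotor ring, Atp5g3 was at 14.08 and Atp5g2 at 11.99 per kilobase in tumour-free TIM4+CD206+ KCs. In TIM4+CD206+ KCs the tumour differences of Atp5g1, Atp5g2 and Atp5g3 were 0.29, 0.09 and 0.41. The corresponding values were −0.11, 0.01 and 0.44 for the CD206hi subset and −0.17, −0.29 and −0.13 for Id3 deletion, and none passed the test. Reads of Ndufb4 and Ndufa11 could be shared with the rows Ndufb4c and Ndufa11b, which are named as their copies, and the values of these genes are uncertain to that extent.

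The symbol rule leaves out Cox4i1, Cox4i2, Cyc1 and Ndufab1, which also belong to the chain. Cox4i1, a nuclear subunit of complex IV, was 14.85 ± 0.57 (SD, n = 3) in tumour-free and 15.24 ± 0.13 in tumour-bearing TIM4+CD206+ KCs, 13.59 ± 0.10 and 13.52 ± 0.08 in TIM4+CD206hi KCs, and 13.51 ± 0.15 and 13.28 ± 0.05 (n = 2) with Id3 deletion. Cyc1, the cytochrome of complex III, was 10.61 ± 1.53 in tumour-free and 12.19 ± 0.07 in tumour-bearing TIM4+CD206hi KCs, with a wide spread among tumour-free samples as in Uqcrfs1. None of these 4 passed the test in a comparison in which it was tested.

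Mitochondrial ribosomal proteins and assembly factors were read as neighbouring groups. Of 78 genes for mitochondrial ribosomal proteins, which translate the subunits encoded by mitochondrial DNA, 69 were higher with tumour in TIM4+CD206+ KCs (median 0.22, 0 called). In TIM4+CD206hi KCs 44 were lower (median −0.08, 0 called). With Id3 deletion 73 were lower (median −0.20) and 9 were called lower, against 3.37% of all genes and 17.6% of all genes under 1000 bases. The part of length in these calls was not tested. The largest of the called differences was that of Mrps21 (−0.48 ± 0.10, limma adjusted p = 0.0255). Of 23 assembly factors of complex IV, 2 were called lower with Id3 deletion, against 3.37% of all genes: Cox14 (−0.52 ± 0.10, limma adjusted p = 0.0183) and Cox17, the copper chaperone (−0.42 ± 0.09, limma adjusted p = 0.0315). Sdhaf4, which helps mature Sdha, fell by 0.44 ± 0.10 (limma adjusted p = 0.0376) and Atpif1, the inhibitor of ATP synthase, by 0.52 ± 0.10 (limma adjusted p = 0.0193). These 5 genes have transcripts of 444 to 723 bases, a length class in which 17.6% of all genes were called lower. No gene of these groups was called with tumour in either subset.

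Enzymes that feed the chain and regulators of mitochondrial gene expression followed. Of 14 enzymes of the tricarboxylic acid cycle, 7 were higher with tumour in TIM4+CD206+ KCs (median 0.02), 9 in TIM4+CD206hi KCs (median 0.09) and 9 with Id3 deletion (median 0.08), where Dlst, a component of the oxoglutarate dehydrogenase complex, rose by 0.53 ± 0.12 (limma adjusted p = 0.0354). Of the regulators of mitochondrial biogenesis, 7 of 14 were higher in TIM4+CD206+ KCs (median −0.02), 13 of 15 in TIM4+CD206hi KCs (median 0.26) and 11 of 15 with Id3 deletion (median 0.06), where Polrmt, the mitochondrial RNA polymerase, rose by 0.46 ± 0.09 (limma adjusted p = 0.0213). The 11 genes of cristae and inner membrane organization had medians of 0.26, 0.10 and −0.17 in the 3 comparisons and none was called. Dlst and Polrmt have transcripts of 2764 and 3755 bases. They were the 1 gene of 14 and the 1 of 15 called higher with Id3 deletion, against 3.08% of all genes. Of all genes of 2000 bases or more, 370 of 8686 were called higher. Cycs, the cytochrome c that carries electrons between complexes III and IV, differed by 0.17 ± 0.18, −0.19 ± 0.16 and −0.30 ± 0.12 in the 3 comparisons and passed the test in none.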

How the data were processed

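The authors amplified RNA of sorted KCs with the SMART-Seq v4 kit and sequenced it in paired reads. The submitters' processing notes name STAR 2.7.10a, HTSeq, DESeq2 and the build mm10. The deposited log2 values have the form of regularized logs of normalized counts, with a separate normalization in each of the 3 tables, although the files name counts and TPM. Read depth is not held in them, so that precision was judged from replicates. No further columns of samples were found, and the authors' own comparisons were not used.

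Samples were grouped by their labels. Groups were compared within a table with limma 3.58.1 in R 4.3.3, two-sided, letting the prior variance follow expression, with p-values adjusted by Benjamini-Hochberg over all genes with a value of at least log2 of 10 in 3 samples (2 in the Id3 table). Subunits were read from this fit and summarised by complex, with no test of the list. The script was tested on simulated data. Genes were named if called, if at the largest rise, fall or mean of a complex, or if a tissue-specific isoform, and others were named after their values were seen. Members and lists were chosen with earlier results of these data known.

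Alternatives were no filter, a mean of at least log2 of 50, no trend, median centring, quantile normalization, the replicate block and each sample left out. Removal of trends with transcript length, GC content and GC content of the first 200 bases (natural splines, 5 degrees of freedom each) was chosen after seeing the data, and used the longest RefSeq-linked coding transcript of GENCODE M21, known for 92.8% to 94.0% of tested genes. That transcript need not be the one expressed. Deviations from group means of samples with the same number correlated at 0.35, 0.56 and 0.15 in TIM4+CD206+ KCs, at −0.05, −0.13 and −0.05 in TIM4+CD206hi KCs and at −0.07 and −0.10 in the Id3 table. Positive values were thus seen in TIM4+CD206+ KCs only, and were weak for the third number. The labels do not say that samples with the same number are paired. Promoters were those of RefSeq for GRCm38.p6, the patch release of mm10. Protein sequences were not used here. The name of 1 subunit is not reported here. Figures were drawn with matplotlib 3.10.9 in Python 3.11.15.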

Additional observations from a re-analysis of the deposited data

Results flagged for a closer look

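Cox7a2l, the factor that joins complexes III and IV into supercomplexes, was the only subunit gene whose tumour-bearing samples all lay above the tumour-free samples in TIM4+CD206+ KCs and all below them in TIM4+CD206hi KCs. It was 12.41, 12.02 and 12.46 against 12.63, 12.54 and 12.46 in the former, a log2 difference of 0.25 ± 0.17 (SE, limma adjusted p = 0.531), and 11.66, 11.68 and 12.33 against 11.65, 11.55 and 11.41 in the latter, a difference of −0.35 ± 0.22 (limma adjusted p = 0.395). The margins were narrow, at 12.46 on both sides in TIM4+CD206+ KCs after rounding and 11.65 against 11.66 in TIM4+CD206hi KCs. The difference between the subsets was not tested, since their tables were normalized separately.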

How the results depend on the processing

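Over 1208 values recomputed under alternatives, 990 kept their direction and side of the threshold or moved by less than the spread, 89 moved further, 23 gained the threshold, 60 lost it, all of them single subunits called in the Id3 comparison, and 46 reversed, all of them named subunits that had not passed the test. In TIM4+CD206+ KCs the replicate block called 1 subunit, and removal of length and GC trends gave a median of 0.02 with or without the block. It turned Ndufs8 to −0.01, Sdhb to −0.06, Cox6a1 to −0.10, Atp5a1 to 0.11, Cox7a1 to −0.14 and Atp5g2 to −0.23 in both fits, and quantile normalization turned Atp5a1 to 0.03. With 1 sample left out, 0 subunits were called throughout, the median was 0.17 to 0.38, and the ranges were −0.29 to 0.11 for Ndufs1, −0.09 to 0.41 for Ndufs8, −0.19 to 0.31 for Sdhb, −0.06 to 0.21 for Atp5g2 and −0.20 to 0.08 for Cox6b2. In TIM4+CD206hi KCs median centring moved the subunit median to −0.31, Cox7a1 to −0.08 and Atp5g2 to −0.15. Quantile normalization moved Cox7a1 to −0.26 and Atp5g2 to −0.03. Removal of trends, with or without the block, gave −0.15 for Cox6a1, −0.04 for Cox7a1 and −0.27 for Atp5g2. With 1 sample left out, 0 to 2 subunits were called, the median was −0.24 to −0.08, and the ranges were −0.17 to 0.26 for Atp5g2, −0.24 to 0.33 for Cox6a2, −0.13 to 0.84 for Uqcrc1, −0.11 to 0.73 for Cox6a1 and −0.01 to 0.14 for Cox7a1. The replicate block called 0 subunits there. In the Id3 comparison 1 subunit was called with no filter (477 of 16677 genes), 14 with a mean of at least log2 of 50 (12 lower, 1051 of 10680 genes), 47 with the replicate block (2089 of 12833 genes), which leaves the third Id3f/f sample without a partner and so without weight, and 2, both higher, with trends removed. The median was −0.05 with trends removed and −0.07 with the block as well, and then 10 subunits were called, 6 of them lower, 1 of which was among the 9. Trends removed turned Sdhd to 0.04, Cox5a to 0.02, Cox6b2 to 0.20 and Atp5g3 to 0.10, and with the block Sdhd to 0.06, Cox6b2 to 0.24 and Atp5g3 to 0.06. With 1 sample left out, 0 to 42 subunits were called and the median was −0.36 to −0.21. The cause of these moves was not tested, apart from the smaller number of genes tested under the stricter filter and the larger one without a filter. With 2 to 3 samples per group, small differences could go unseen, most of all for genes with few reads.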
